A study of Mus musculus with 8 samples.

Results

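The names described here are 208 small RNAs listed under piRNA names that were higher after MC-LR or with an shRNA against Hsp90aa1 and that lie outside 7 piRNA windows where such names crowd together. They were chosen from 20210 names in 2 deposited tables. From the MC-LR table, 183 of 13450 names had a mean of at least 4 times the control mean. From the shRNA table, 25 of 17375 names had a mean of at least 3 times the negative-control mean. A further 131 and 12 names passed the same ratios inside the windows and were set aside, as was a short window over Rnu12. The ratio itself chose these names, so their fold values are given as a description, with no test.

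Small RNA of sperm was sequenced from Balb/c mice at an age of 8 months. There were 4 groups of 2 libraries, lettered A and B. They were MC-LR and its control, and Hsp90aa1 shRNA and a negative-control shRNA. The toxin microcystin-LR, made by cyanobacteria and written MC-LR, blocks the protein phosphatases PP1 and PP2A. Hsp90aa1 encodes the inducible cytosolic chaperone HSP90 alpha, and an shRNA is a hairpin RNA that lowers the mRNA it matches. The labels give no dose, route or vector and do not say how many mice stand behind a library, so the spread between libraries A and B may be technical. The tables hold no mRNA, so the knockdown itself was not analysed here.

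piRNAs are germline small RNAs that load into PIWI proteins and guide them to transposons and other transcripts in the male germ line. In mouse spermatocytes and round spermatids most pachytene piRNAs are cut from long single-stranded precursors, many of which are noncoding and are made to either side of a shared promoter bound by the transcription factor A-MYB. Most such piRNAs begin with U (T in the sequences below), and piRNAs made by cleavage opposite a partner tend to have A at base 10.

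The reference sequence was at hand for 48 of the 208 names (23.1%), those that lie within an annotated exon on either strand, as read from GENCODE transcripts of GRCm38. The names beside the long noncoding RNAs Gm10619 and Gm21269 are shown because this place held names from both tables on both strands. Capitals mark the first base and base 10, each sequence is written 5′ to 3′ on its own strand, and the names are in order along chromosome 7 of the mm10 build. Those marked (shRNA) were chosen in the shRNA table and those marked (MC-LR) in the MC-LR table.
piR-mmu-113170 (MC-LR): TttgaccacAaagtttgactgccagga
piR-mmu-56695586 (shRNA): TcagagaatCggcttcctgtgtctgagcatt
piR-mmu-1043221 (shRNA): TttggagatTgaatttttgaaaaagcctt
piR-mmu-40529 (shRNA): TggagattgAatttttgaaaaagcctt
piR-mmu-4343342 (MC-LR): TgggaatgaGgttcaggacacagggct
piR-mmu-3842578 (MC-LR): TgacagaggGctatctatgctgggac
piR-mmu-49015083 (MC-LR): TggtaggaaTggcatcactaagaactgta
piR-mmu-49210604 (MC-LR): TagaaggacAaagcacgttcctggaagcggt
piR-mmu-208483 (MC-LR): TatgatcatTttgagcttgtcgactccata

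All 9 begin with T. The first 2 lie on the minus strand in exons of Gm10619 and the other 7 on the plus strand in exons of Gm21269. piR-mmu-40529 and piR-mmu-1043221 end at the same base and start at different ones.

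Of the 48 names with a sequence, 45 began with T, 2 with C and 1 with A. Among the MC-LR table's names on exons, 39 of 42 members (92.9%) began with T, against 1993 of 6941 names (28.7%) that were not members and lay outside the windows. Among those of 29 to 33 nt the share was 689 of 2497 (27.6%). The names that were not members include some on genes of small structural RNAs or microRNAs. Such genes held 22.2% of all names of the MC-LR table and none of its members. Their first bases were not counted apart. In the shRNA table the counts were 6 of 6 members, against 2327 of 8116 other names (28.7%). On exons inside the windows set aside, T came first in 19 of 23 MC-LR names (82.6%) and 5 of 7 shRNA names. A high share of T at the first base was thus not particular to the members. Base 10 was A in 19 of the 48, G in 13, T in 11 and C in 5. In the MC-LR table this A stood in 16 of 42 members (38.1%), against 23.1% of names on exons that were not members and lay outside the windows, and in the shRNA table in 3 of 6, against 23.2%. On exons inside the windows it stood in 0 of 23 MC-LR names and 0 of 7 shRNA names. The 16 include the near-identical names shown next, and piR-mmu-3260195, which overlaps piR-mmu-2624636 by 22 nt, so they are not all separate sequences. As most members have no sequence here, these shares describe the exonic members and not the 208.

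A family of 4 near-identical names lies antisense to processed pseudogenes on chromosome 10, and is shown because the names differ by a base at the 3′ end while their levels are close. Capitals again mark the first base and base 10.
piR-mmu-2624636: TtggatgttActctagaacctggaagaggc
piR-mmu-2695611: TtggatgttActctagaacctggaagaagc
piR-mmu-100338: TtggatgttActctagaacctggaagaggt
piR-mmu-2760639: TtggatgttActctagaacctggaagagac

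Counted from 1 at the 5′ end of piR-mmu-2624636, the differences are G28A in piR-mmu-2695611, C30T in piR-mmu-100338 and G29A in piR-mmu-2760639. piR-mmu-2624636 had 14.1 and 14.8 RPM (the reads of a name relative to its library's total) in MC-LR libraries A and B, against 0.478 and 1.41 RPM in control libraries A and B. piR-mmu-2695611 had 14.5 and 14.3 RPM under MC-LR, against 0.478 and 1.01 RPM in the control. piR-mmu-100338 had 14.0 and 14.8 RPM under MC-LR, against 0.478 and 1.21 RPM in the control. The MC-LR libraries were above the control libraries for each of these, and the levels of the 3 names lie so close that reads counted under more than 1 of them cannot be told apart. piR-mmu-2760639 had 11.4 and 9.60 RPM under MC-LR, against 0.342 and 0.403 RPM in the control. The pseudogenes Gm47366, Gm48451 and Gm48454 hold these sequences on their other strand, at chr10:85764457-85764486 and chr10:85765711-85765740 on the plus strand and chr10:86573069-86573098 and chr10:86574348-86574377 on the minus strand.

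Library totals ran from 5941139 to 6560723 reads under MC-LR, 4960467 to 14634370 in the control, 10832261 to 13360928 with the Hsp90aa1 shRNA and 9710383 to 13380630 with the negative-control shRNA. The listed names held 11.7% to 12.5% of the reads under MC-LR, against 35.3% to 38.1% in the control, and 3.18% to 4.98% with the Hsp90aa1 shRNA, against 27.8% to 32.5% with the negative control. Most names were thus lower: with limma on log2(RPM + 1) and Benjamini-Hochberg adjustment, 314 of 13271 tested names (2.37%) were higher under MC-LR and 9703 (73.1%) lower, and 37 of 16859 (0.219%) were higher with the Hsp90aa1 shRNA and 16773 (99.5%) lower. Leaving out MC-LR A brought the lower count to 5259, and leaving out MC-LR B to 5373. With TMM scaling in edgeR on recovered reads the split was 316 higher to 296 lower under MC-LR and 37 higher to 14 lower for the knockdown. Names on microRNA genes of 5 epithelial markers summed to 2408 and 2490 RPM under MC-LR, against 6388 and 4690 RPM in the control, and those of 2 smooth muscle markers to 108 and 133 RPM, against 297 and 219 RPM. None of 14 germ cell and sperm microRNA genes had a name in the MC-LR table, while 12 had one in the shRNA table, summing to 2979 and 815 RPM with the Hsp90aa1 shRNA, against 8551 and 13474 RPM with the negative control. In that table the epithelial markers summed to 399 and 110 RPM with the Hsp90aa1 shRNA, against 2591 and 3801 RPM with the negative control, and the smooth muscle markers to 1023 and 219 RPM, against 3682 and 7180 RPM. The part of other cells, or of fewer cells against less RNA per cell, in the levels below was not tested.

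The 183 names chosen under MC-LR were rare in control sperm and of middling level under MC-LR. They summed to 1672 and 1385 RPM in MC-LR A and B, against 84.2 and 119 RPM in control A and B. The means of these sums were 1528 ± 203 RPM and 101 ± 24.4 RPM (SD, n = 2 each), a ratio of 15.1. For every one of the 183 both MC-LR libraries lay above both control libraries, as the rule nearly fixes. The same limit holds wherever a single member or a group of members is said to stand above its controls. Over all names of the table this held for 2.34%. Single ratios ran from 10.4 to 33.7 with a median of 15.9, against a median of 0.317 over all names. Behind them stood a median of 39 and 35 reads in MC-LR A and B, against 4 and 2 reads in control A and B, and 44 names had at most 3 reads over both control libraries together. MC-LR A was above MC-LR B in 136 of the 183 names.

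The 25 names chosen with the shRNA were likewise higher in both raised libraries. Their ratios are not set against those of the MC-LR table, which had another threshold and another median over all names. They summed to 143 and 168 RPM in Hsp90aa1 shRNA A and B, against 27.0 and 20.3 RPM in negative-control shRNA A and B. The means were 156 ± 17.6 RPM and 23.6 ± 4.76 RPM (SD, n = 2 each), a ratio of 6.60. In all 25 the groups did not overlap, as the rule again nearly fixes, against 0.213% of the table. Their ratios ran from 4.73 to 23.5 with a median of 7.51, against a median of 0.137 over all names.

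**Figure D1:**
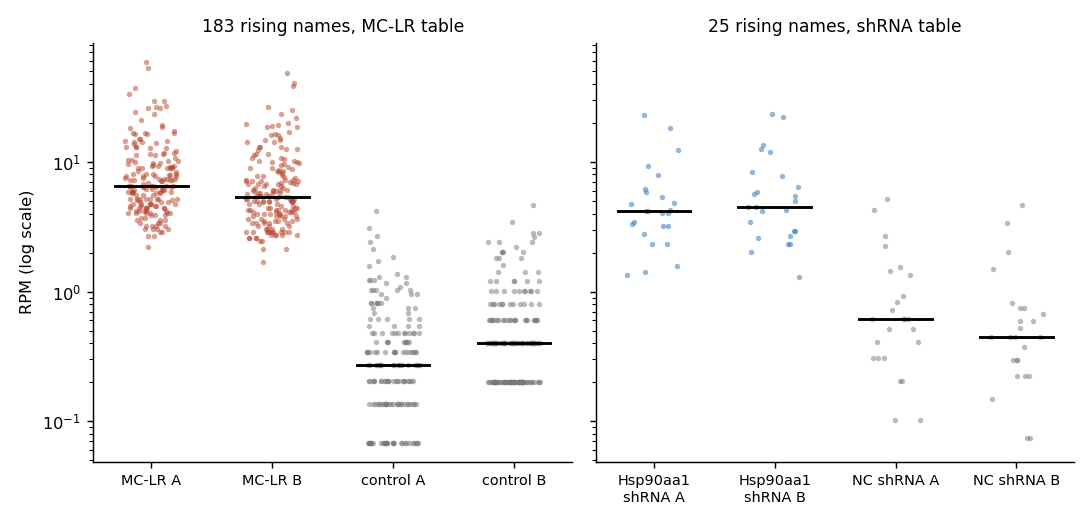
Level of each rising name in each library, in RPM on a log scale, with the MC-LR table at the left and the shRNA table at the right. Points are names and bars are medians, which stand at 6.56 and 5.33 RPM in the MC-LR libraries, above 0.273 and 0.403 RPM in the control libraries, and at 4.19 and 4.52 RPM with the Hsp90aa1 shRNA, above 0.618 and 0.448 RPM with the negative control.

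On the scale of library totals, the thresholds fell in an empty stretch of both tables. The lowest members of the MC-LR table were piR-mmu-2724197 at a ratio of 10.4 and piR-mmu-208483 and piR-mmu-48981752 at 11.0, while the nearest names below the threshold were piR-mmu-32995428 at 1.85, piR-mmu-48723083 at 0.845 and piR-mmu-48734027 at 0.832. In the shRNA table the lowest members were piR-mmu-40529 at 4.73, piR-mmu-26003 at 5.34 and piR-mmu-424500 at 5.35, and the nearest below were piR-mmu-32995428 at 0.516, piR-mmu-22725052 at 0.513 and piR-mmu-65491302 at 0.505. With TMM factors in place of library totals 184 names of the MC-LR table would pass, and 125 with the shRNA. Neither table held a value of 0. Names with little change are thus nearly missing from the tables on the scale of library totals. With TMM factors in edgeR the median log2 change over all names was 0.06 in the MC-LR table and -0.03 in the shRNA table. What the submitters used to list a name is not given in the sources used here.

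**Figure D2:**
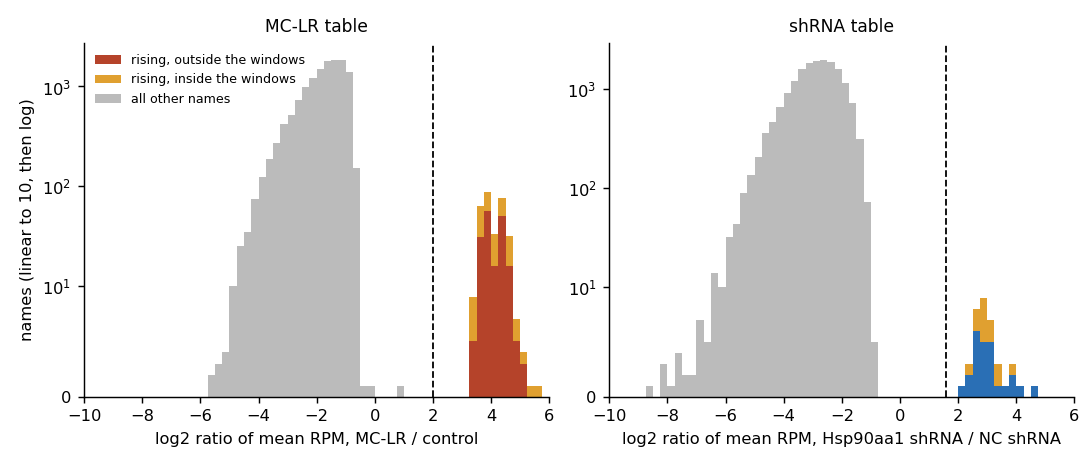
Number of names by log2 ratio of group means, MC-LR over control at the left and Hsp90aa1 shRNA over negative-control shRNA at the right, on an axis that is linear to 10 and logarithmic above. Coloured bars are the rising names outside and inside the windows, grey bars all other names, and the dashed line is the threshold, a ratio of 4 at the left and 3 at the right. The rising names stand apart from the rest, with an empty stretch around the line.

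None of the 183 names was listed in the shRNA table and none of the 25 in the MC-LR table, so no member could be tested as itself in the libraries that had not chosen it. The tables shared 10615 names, a share of 78.9% in the MC-LR table and 61.1% in the shRNA table. Of the names lower by their means, 10613 of 13135 in the MC-LR table and 10614 of 17338 in the shRNA table were listed in the other. Of the names higher by their means, this held for 2 of 315 and 1 of 37.

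The members were longer than most names of their tables. Under MC-LR 123 of 183 (67.2%) were 29 to 33 nt, against 34.5% of all names of that table, and with the shRNA 22 of 25 (88.0%), against 27.9%. The medians were 29 and 30 nt, against 27 and 26 nt over all names of each table. At the short end, 7 of 183 and 0 of 25 members were 17 to 23 nt, against 18.2% and 25.8% of all names.

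**Figure D3:**
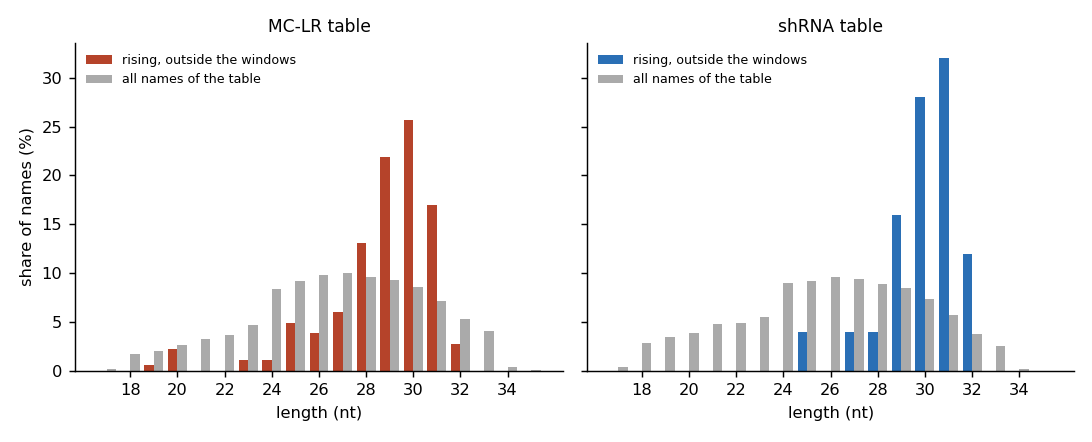
Share of names at each length in nt, coloured bars for the rising names outside the windows and grey bars for all names of the same table, MC-LR at the left and shRNA at the right. The coloured bars gather at 29 to 32 nt, while the grey bars spread from 18 to 33 nt.

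By annotation, 103 of the 183 (56.3%) lay outside genes, against 29.8% of all names of the table, 51 lay inside a gene but not on an exon of their own strand, 20 on exons of long noncoding RNAs and 9 on exons of protein-coding genes. Of the 51, 15 lay against an exon on the other strand. None was on a gene of a small structural RNA or a microRNA, where 22.2% of all names were. Of the 25, 14 (56.0%) lay outside genes, against 32.8% of all names, 5 inside a gene, 4 on long noncoding exons and 1, piR-mmu-51955459, on the snRNA gene Gm22984. Of the 208, 183 had a single listed locus. Reads of the other 25 names were counted at each of their loci.

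The most abundant member was piR-mmu-8117009, 20 nt long and listed at 3 loci, with 52.7 and 48.8 RPM under MC-LR, against 4.17 and 1.81 RPM in the control. At its printed locus, chr1:167340462-167340481, the other 154 names of the MC-LR table within 10 kb were all lower by their means, with a median ratio of 0.360. At its loci on chromosomes 9 and 16 it overlaps another member, piR-mmu-8117010, which averaged 18.4 ± 3.44 RPM under MC-LR and 1.19 ± 0.541 RPM in the control (SD, n = 2 each). Reads of these overlapping names cannot be told apart. piR-mmu-49306705, also 20 nt and antisense to an exon of Lzts3 on chromosome 2, had 29.5 and 40.5 RPM under MC-LR, against 3.07 and 2.02 RPM in the control. These short names differ in length from most of the list.

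Other abundant members were of piRNA length and lay close together on chromosome 14 outside genes. piR-mmu-2604210, 29 nt at chr14:24093335-24093363 on the plus strand, had 59.2 and 38.3 RPM under MC-LR, against 2.39 and 4.64 RPM in the control. The ratio of its pooled reads had an exact 95% interval of 12.4 to 21.7, which covers counting error only. piR-mmu-48737441, at chr14:24105081-24105109 on the same strand, had 37.4 and 26.5 RPM under MC-LR, against 2.12 and 3.43 RPM in the control. For both names either MC-LR library was well above either control library. With 6 members the stretch chr14:24084198-24093363 summed to 102 and 71.0 RPM under MC-LR, against 4.51 and 7.66 RPM in the control, and all 6 lay on the plus strand.

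Among members on noncoding genes, piR-mmu-2835037 on an exon of the long noncoding RNA 1700020N18Rik had 33.7 and 25.1 RPM under MC-LR, against 2.66 and 2.42 RPM in the control. piR-mmu-26153, antisense within Stox1, had 29.3 and 23.6 RPM under MC-LR, against 1.71 and 2.82 RPM in the control. On protein-coding exons the most abundant was piR-mmu-252873 on Nemp1, an inner nuclear membrane protein gene, with 16.7 and 18.4 RPM under MC-LR, against 1.30 and 1.21 RPM in the control. Each stood above both control libraries in both MC-LR libraries. Nemp1 held 3 members, all on its sense strand along chr10:127694470-127699721.

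The highest ratios belonged to names with few control reads. piR-mmu-49206863, at chr15:74645839-74645869, had 6.40 and 7.32 RPM under MC-LR, against 0.205 and 0.202 RPM in the control, a ratio of 33.7 that rests on 4 control reads and has an exact 95% interval of 12.7 to 126 for the pooled reads. piR-mmu-3099704 begins at the same base and is shorter, with 9.59 and 5.94 RPM under MC-LR, against 0.273 and 0.202 RPM in the control. piR-mmu-2591605, inside Cyp19a1, which encodes the aromatase that makes oestrogens, had 7.07 and 8.69 RPM under MC-LR, against 0.273 and 0.202 RPM in the control. With control values this near to a single read, the order of these ratios is not resolved.

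Many members lay near another member, but how far all names of the tables group in this way was not counted. Names that were not members crowded as well. Within 10 kb of chr16:11144068-11144090 lay 210 of them in the MC-LR table. Within 10 kb of chr2:69355538-69355567 lay 205 in the shRNA table. With loci within 10 kb joined, the 208 fell into 79 neighbourhoods. There were 35 single names, 17 pairs and 27 groups of at least 3, which together held 139 members. The groups spanned 0.458 to 25.1 kb with a median of 4.76 kb. Of the 27, 10 lay on the plus strand alone and 11 on the minus strand alone. In 5 the minus-strand members all lay left of the plus-strand members, in none the other way round, and in 1 the strands were mixed.

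The 5 groups with members pointing away from each other had gaps of 2241 to 5648 nt between the strands. They were chr12:98399691-98424814, chr15:59253501-59276775, chr7:69902352-69919884, chr7:73102455-73110864 and chr7:73809592-73822953. All 5 held members of both tables. At chr7:69902352-69919884, outside genes, the 9 members of the MC-LR table summed to 86.3 and 62.0 RPM under MC-LR, against 4.24 and 6.85 RPM in the control. The 1 member of the shRNA table there, piR-mmu-2906456, had 3.29 and 3.42 RPM with the Hsp90aa1 shRNA, against 0.515 and 0.448 RPM with the negative control. In each comparison the raised libraries did not overlap the others.

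In the place on chromosome 7 whose sequences are given above, 2 members lay on the minus strand and 7 on the plus strand. piR-mmu-40529, the most abundant of the 25, had 22.9 and 23.4 RPM with the Hsp90aa1 shRNA, against 5.15 and 4.63 RPM with the negative control. piR-mmu-56695586 on Gm10619 had 4.79 and 5.63 RPM with the Hsp90aa1 shRNA, against 0.824 and 0.598 RPM with the negative control. Both libraries of the Hsp90aa1 shRNA stood above both others for names on either strand. Under MC-LR the 6 other names summed to 42.9 and 39.9 RPM, against 1.84 and 3.43 RPM in the control. The RefSeq promoter of Gm10619, a stretch of 300 bases around its start, lies between the strands at chr7:73816454-73816753 of GRCm38.p6 and is shown on its own minus strand because members on either side of it were higher. The listed promoter of Gm21269, which hosts the plus-strand members, lies to the right of all of them, at chr7:73825674-73825973. It held 2 of the matches described next. As it lies downstream of the exons with these members, it does not mark where their transcript starts. Whether the strands share a start was not tested. Capitals mark the letters AACNG on either strand, the core of the sequence known for MYB proteins.
Gm10619 promoter: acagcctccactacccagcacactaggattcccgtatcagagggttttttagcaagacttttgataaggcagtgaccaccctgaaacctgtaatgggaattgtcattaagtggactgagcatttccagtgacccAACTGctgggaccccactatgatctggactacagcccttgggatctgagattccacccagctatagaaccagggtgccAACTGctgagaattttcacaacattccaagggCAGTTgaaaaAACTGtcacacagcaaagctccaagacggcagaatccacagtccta

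It held 4 matches, with no overlap. At least 1 match was found in 80.3% of 32851 RefSeq promoters of this length and at least 4 in 11.8%. Over 15 promoters of 13 noncoding genes with sense members the median was 2, as over all promoters. Protein-coding hosts such as Nemp1 were not among them. The promoter of Gm2762 held 7 matches and that of 4933440M02Rik 5. Those of 1700020N18Rik, D130017N08Rik and Gm10619 and 1 promoter of Gm21388 held 4, and the rest 0 to 3. Whether this spread differs from that over all promoters was not tested. These letters alone are common and mark no site.

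The members of the tables lay side by side. Of the 25 members of the shRNA table, 16 (64.0%) lay within 10 kb of a member of the MC-LR table, against 536 of 17297 names (3.10%) of their whole table outside the windows. In the other direction this held for 54 of 183 (29.5%), against 65 of 13306 (0.489%). Counting names with a single locus, 13 of 19 members of the shRNA table lay near such a member of the MC-LR table. Of the 79 neighbourhoods, 12 held members of both tables, with 61 from the MC-LR table and 16 from the shRNA table. No MC-LR member and 1 shRNA member, piR-mmu-1030055 on chromosome 18, lay within 10 kb of a window set aside. Within 50 kb lay 5 of 183 MC-LR members (2.73%), against 5 of 13306 names (0.0376%). In the shRNA table this held for 1 of 25, against 10 of 17297 names (0.0578%). The 3 members at chr5:113322657-113327317 lay 10.5 kb from a window, and the 2 at chr6:127830554-127832334 lay 25.2 kb from one.

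**Figure D4:**
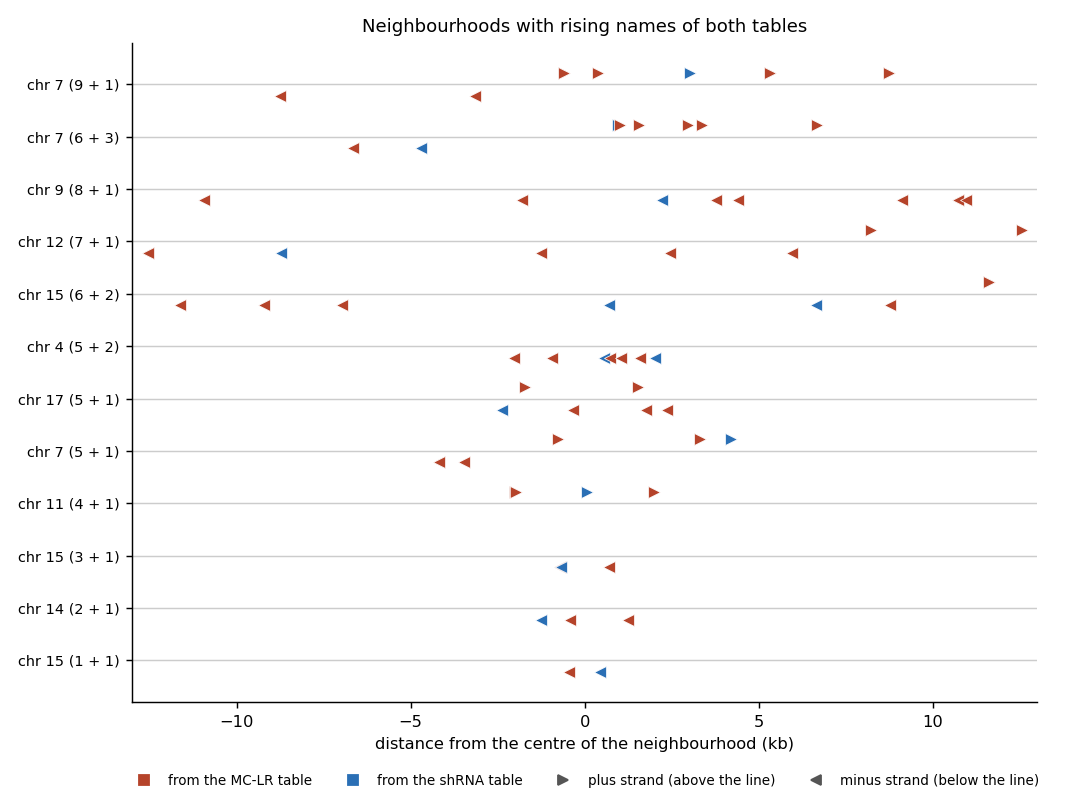
The 12 neighbourhoods with rising names of both tables, 1 row each, labelled with the chromosome and the number of names from the MC-LR table plus the shRNA table. Each triangle is a name at its distance in kb from the centre, above the line on the plus strand and below it on the minus strand, and names that overlap hide each other. In the 5 rows where minus-strand names lie left of plus-strand names the strands point away from each other, in 6 rows all names share a strand, and in the row of chromosome 17 the strands mix.

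Names near members of the other table were also counted by their calls in limma, with Benjamini-Hochberg adjustment over all names. The higher names found there are all members, chosen by the same contrast, so these counts restate the closeness above and nothing is read from their share. Within 10 kb of a member of the shRNA table, 65 names of the MC-LR table were tested and 54 were higher under MC-LR, all 54 of them members, against 2.37% higher over all tested names. The 54 lay on 8 chromosomes, with 19 on chromosome 7 and 9 on chromosome 15. The other 11, none of them a member, are all on the X chromosome around piR-mmu-32143560, which had 4.27 and 2.58 RPM with the Hsp90aa1 shRNA, against 0.618 and 0.224 RPM with the negative control. Of these 11, 7 were lower under MC-LR and 4 did not pass, and the 7 were 3 without MC-LR A and 0 with TMM scaling or in DESeq2.

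Within 10 kb of a member of the MC-LR table, 510 names of the shRNA table were tested. The 16 higher with the Hsp90aa1 shRNA are again all members, against 0.219% higher over all tested names, 493 were lower and 1 did not pass. Of the 510 names, 212 lay on chromosome 1 and 180 on chromosome 16. Without those chromosomes, a choice made after the values were seen, 118 names remained, 16 of them higher and 102 lower. With TMM scaling 0 of the 510 were lower, and in DESeq2 1. On the scale of library totals, members and lower names of the shRNA table thus stood side by side near members of the MC-LR table. As nearly all names of the shRNA table were lower on this scale, lower names are not particular to these places.

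Single places, each counted with 10 kb to either side, differed between the tables in this. At chr15:59253501-59276775 all 6 names of the MC-LR table were higher by their means, while 2 of the 10 names in the shRNA table were higher and 8 lower, the 8 with a median ratio of 0.195. The higher piR-mmu-51777728 there had 5.39 and 6.46 RPM with the Hsp90aa1 shRNA, against 0.206 and 0.299 RPM with the negative control, the highest ratio of the 25. At chr6:81895733-81899992 all 5 names of the MC-LR table were members, and all 5 names of the shRNA table were lower, with a median ratio of 0.0386. Most abundant of those members was piR-mmu-2647305, with 8.92 and 6.71 RPM under MC-LR, against 0.342 and 0.605 RPM in the control. The names listed in the tables at these places are different ones, so the same RNA was not compared across them.

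Inside Cyp19a1 on its sense strand, chr9:54210845-54232751 held 8 MC-LR members and 1 shRNA member, none on an exon. The 8 summed to 50.3 and 39.8 RPM under MC-LR, against 2.12 and 2.82 RPM in the control. piR-mmu-424500 had 18.3 and 22.2 RPM with the Hsp90aa1 shRNA, against 4.22 and 3.36 RPM with the negative control. Both sets stood apart from their controls without overlap, as the rule for members nearly fixes. The other 14 names of the shRNA table in this stretch or within 10 kb of it were lower. Their median ratio was 0.204, against 0.137 over all names of that table. Only 2 of these 14 lay on the strand of the members.

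Further places held fewer names. Inside Zfp37, a zinc finger gene of the male germ line, chr4:62220782-62224865 held 5 MC-LR members and 2 shRNA members, most of them with another copy nearby. piR-mmu-49200278 had 9.76 and 6.71 RPM under MC-LR, against 0.342 and 0.403 RPM in the control. piR-mmu-49644962 had 1.42 and 2.31 RPM with the Hsp90aa1 shRNA, against 0.103 and 0.149 RPM with the negative control, on 3 reads over the negative-control libraries. On the long noncoding RNA 1700001L05Rik at chr15:83354656-83355584, a member of each table lay on the sense strand, and their sequences show T at the first base in both and different letters at base 10.
piR-mmu-24712 (MC-LR): TagaagaacAgttggctggacattggga
piR-mmu-2624779 (shRNA): TaatgcaatCttctctgcttgtctgccttg

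piR-mmu-24712 had 6.40 and 5.79 RPM under MC-LR, against 0.273 and 0.403 RPM in the control. piR-mmu-2624779 had 4.72 and 4.25 RPM with the Hsp90aa1 shRNA, against 0.618 and 0.822 RPM with the negative control. Each was higher in both raised libraries than in either of the others.

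Ends of neighbouring members met in a few cases. Among members that overlap on a strand, 8 pairs shared the 5′ end, 2 shared the 3′ end and 9 overlapped with other ends, and none overlapped a member on the opposite strand. At chr15:78664573-78664603 on the minus strand piR-mmu-26003 ends at the base before piR-mmu-3973985 begins, with 0 nt between them, although they come from different tables. piR-mmu-26003 had 12.4 and 12.6 RPM with the Hsp90aa1 shRNA, against 2.68 and 2.02 RPM with the negative control. piR-mmu-3973985 had 9.93 and 7.16 RPM under MC-LR, against 0.478 and 0.403 RPM in the control. On chromosome 10 piR-mmu-2606784 begins 3 nt after the end of piR-mmu-2695611.

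Of the 25, 9 lay away from members of the MC-LR table. The most abundant of them was piR-mmu-192405 on chromosome 2, with 9.36 and 12.0 RPM with the Hsp90aa1 shRNA, against 2.27 and 1.49 RPM with the negative control. piR-mmu-48911029 on chromosome 13, listed at 2 loci, had 6.21 and 13.6 RPM with the Hsp90aa1 shRNA, against 1.44 and 0.448 RPM with the negative control. piR-mmu-61380110, antisense within Deptor, which encodes an inhibitor of mTOR, had 3.44 and 8.31 RPM with the Hsp90aa1 shRNA, against 0.412 and 0.299 RPM with the negative control. In the last pair of names library B was over 2 times library A, while both stayed above the negative control. piR-mmu-51955459 on Gm22984 had 4.04 and 4.99 RPM with the Hsp90aa1 shRNA, against 0.618 and 0.747 RPM with the negative control.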

How the data were processed

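Small RNA of sperm was measured in 8 libraries, 2 in each of 4 groups taken from the sample titles. The authors deposited 2 tables of RPM per locus and piRNA name, MC-LR with control and Hsp90aa1 shRNA with negative-control shRNA. The genome build was mm10 and the tools HTSeq 0.6.0, Bowtie2 2.2.3 and HISAT2 2.1.0, per the submitters' processing notes. The step of each tool and the rule for listing a name are not stated there. All deposited values were whole multiples of 1 read (100% within 0.01), which gave back reads and totals. The floor of 3 reads is 0.205 to 0.605 RPM. Intervals are exact binomial at 95% and cover counting error only.

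Each name was used once, at its locus with the highest mean. Starts were read as 0-based, which placed 630 plus-strand loci at a mature microRNA start, against 90 as 1-based, and are printed 1-based. The members and lists were chosen with earlier results of these data known. limma 3.58.1 (trend, robust) in R 4.3.3 was run on log2(RPM + 1) per table, for names averaging 1 RPM or more in a group, with Benjamini-Hochberg adjustment at 0.05, and was tested on simulated data. Alternatives were edgeR 4.0.16 (quasi-likelihood) and DESeq2 1.42.0 on recovered reads, other filters and pseudocounts, a replicate block and leaving out each library. On library totals edgeR found 314 names higher and 10004 lower under MC-LR, and 37 and 16700 for the knockdown. The planned tests of members in the other table could not be made, since none is listed there. Calls at names near members of the other table were counted after the data were seen, as a description. Classes and sequences come from GENCODE M21 transcripts, promoters from RefSeq (GRCm38.p6). A locus took a class where a share of 0.5 or more of it overlapped.

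Names to print were, by rule, the most abundant and highest-ratio members of each table, the leading member of each neighbourhood and RNA class, and those beside the thresholds, 55 in all, of which the most telling are printed. Further names in the printed neighbourhoods, and the sequences, were chosen after their values were seen. Tables were scaled apart and no level is compared across them. A result on 1 member is not reported here.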

Additional observations from a re-analysis of the deposited data

How the results depend on the processing

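The members depended little on the processing except through scaling. With 1 RPM added to each mean, 153 names passed the ratio in the MC-LR table and 18 in the shRNA table, and leaving out any library kept the counts at 183 and 25. With TMM factors within the list, 184 and 125 names passed, since the median of all names moved on the log2 scale to 0.06, against -1.64 by library totals, in the MC-LR table and to -0.03, against -2.83, in the shRNA table. All 208 members stayed above 0 on either scale.

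Counts of lower names followed the scale. Under MC-LR they were 296 with TMM factors in edgeR and 399 in DESeq2, and ran from 5259 to 10787 when a library was left out. With the shRNA they were 14 and 122, and with a filter at 5 RPM 8142, with 14 higher. Of names near members of the shRNA table, 0 were lower with TMM factors and 0 in DESeq2, 4 at the 5 RPM filter, and 3 to 10 when a library was left out. Of names near members of the MC-LR table, 0 were lower with TMM factors and 1 in DESeq2. At the 5 RPM filter 7 were higher and 180 lower, and without the places on chromosomes 1 and 16, 102 were lower. Fewer names pass the filter by its construction, and the cause of the other changes was not tested. The other 106 values stayed within a set factor of the count at the main setting, which does not make them equal. At the 5 RPM filter 212 names were higher under MC-LR, against 314. With the replicate block 315 names were higher and 9554 lower under MC-LR, and 37 and 16252 with the shRNA. The labels do not say whether the letters pair the samples. Deviations of libraries A from their group means correlated at 0.06 in the MC-LR table and -0.60 in the shRNA table. With 2 libraries in a group these values cannot settle the pairing. A crossed replicate block, added after the data were seen, gave 314 and 10151, and 37 and 16822. No alternative could be run for members in the other table, where none is listed. Control reads of 1 to 4 limit the ratios of many members.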
